A study of Danio rerio with 16 samples.

Results

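The genes of cholesterol and fatty acid synthesis were followed in eyes and brains of zebrafish larvae that had grown up with or without a flame retardant. The set is a list of 31 gene symbols that covers the enzymes from acetyl-CoA to cholesterol, the enzymes of fatty acid synthesis, the regulators of both and a receptor for low-density lipoprotein. Members were found by an exact match of the symbol, and 30 of the 31 had a row among the 31901 genes of each table. The exception was acly, the citrate lyase that makes cytosolic acetyl-CoA, whose copies are listed as aclya and aclyb and were not counted as members. A filter on low values kept genes whose mean in a tissue reached 0.5 FPKM, and 28 members passed it in eye and as many in brain. It left out pmvk and insig1 in both tissues.

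Cholesterol is built from acetyl-CoA through mevalonate, the isoprenoids, squalene and lanosterol, and fatty acids are built from malonyl-CoA on fatty acid synthase. Both routes are set by the SREBP transcription factors, the products of srebf1 and srebf2. When membrane sterol is low, the escort protein SCAP carries SREBP to the Golgi, where proteases release its active part. INSIG proteins hold the complex back when sterol is high. In mammals SREBP2 acts mainly on sterol genes and SREBP1 mainly on fatty acid genes, and the brain makes its cholesterol itself because lipoproteins do not cross from the blood.

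The study asked how exposure to phenol isopropylated phosphate (IPP), an aryl phosphate ester used as flame retardant and plasticizer, alters gene expression in larval eye and brain. Wildtype larvae were held from 6 to 120 hours post fertilization (hpf) in 0.2 uM IPP with 0.02% dimethyl sulfoxide (DMSO), or in 0.02% DMSO with no IPP, so all 4 groups carry the solvent. Eyes and brains were dissected at 120 hpf and their RNA was sequenced. Exposed and vehicle eyes and exposed and vehicle brains make the 4 groups, each with 4 libraries. The sources used here do not say how many larvae were pooled or whether the replicate libraries are from different clutches, so p-values speak of the spread among these libraries alone, which may be technical. Expression is in FPKM, a read number scaled by gene length and by a factor for the library, which was not proportional to its reads assigned to genes. A difference is the log2 of IPP over DMSO after 0.5 was added to each FPKM, a scale that understates differences of low genes, and SE is its standard error in the limma fit. Group means carry the SD over 4 libraries. Coordinates are those of the tables, and the sources used here name no build for them.

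An eye library held 10.6 M to 12.5 M reads assigned to genes, and a brain library 9.62 M to 16.3 M. All 16 eye markers reached 1 FPKM in every eye library, where they summed to at least 22635 FPKM. In brain they summed to 148 FPKM in IPP library 4 and to 9.06 to 38.1 FPKM in the other libraries. Of these markers 12 reached 1 FPKM in brain IPP library 4, and 2 to 9 did in the other brain libraries. Of 19 brain markers 18 reached 1 FPKM in every brain library, and 7 to 12 did in an eye library. The brain markers parted the tissues less, with sums of 617 to 824 FPKM in brain and 439 to 568 FPKM in eye. The most abundant of them, neurod1, was higher in eye (385 to 519 FPKM) than in brain (131 to 218 FPKM). Brain DMSO library 1 and brain IPP library 4 stood apart from the other brain libraries by markers of liver and gut. The 24 such markers summed to 5288 and 11401 FPKM there and to 30.1 to 209.9 FPKM in the other 6 brain libraries. The gene fabp10a, of a liver fatty acid binding protein, read 937 and 1178 FPKM against 0.28 to 2.25. The list also holds genes of pancreatic digestive enzymes, such as prss1. In brain, prss1 read 224 FPKM in DMSO library 1, 3435 FPKM in IPP library 4 and 145 FPKM in DMSO library 4. It read 4.81 to 40.9 FPKM in the remaining brain libraries. Skin markers summed to 1993 to 2212 FPKM in brain DMSO library 4, IPP library 3 and IPP library 4 and to 39.4 to 541 FPKM in the other brain libraries. Cartilage and connective tissue markers summed to 509 to 893 FPKM in brain DMSO libraries 3 and 4 and IPP libraries 3 and 4, and to 72.5 to 88.5 FPKM in the others. Muscle markers summed to 1313 FPKM in brain DMSO library 4 and 1177 FPKM in IPP library 4, against 49.7 to 276 FPKM. The liver and gut markers summed to 219, 44.3, 44.9 and 38.5 FPKM in DMSO eyes 1 to 4. In IPP eyes 1 to 4 they summed to 66.1, 266, 99.4 and 149 FPKM. DMSO library 1 lay among the IPP eyes and the other DMSO eyes below them. The 22 skin and cornea markers summed to 2443 to 3747 FPKM in DMSO eyes and 2826 to 4267 FPKM in IPP eyes.

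The first comparison, exposed against vehicle eyes, asks whether IPP changed these genes in the eye. No member passed the test. With limma, 0 of 28 members and 0 of 17096 genes reached an adjusted p under 0.05 (0% of all genes), the smallest adjusted p of a member being 0.303, and limma-voom on the rebuilt reads called 0 as well. The values nevertheless lay mostly on one side, with 25 of 28 members higher in IPP eyes where 49.5% of all genes were higher. The members were chosen with earlier results of these data known, so this share is a description only. The median member stood at 0.16 on the log2 scale and the median gene at -0.00. At an unadjusted p under 0.05 with limma, 6 members were higher and 0 were lower. Of all genes 5.3% were higher and 5.73% lower at that bound (906 and 980 genes). For these 6 members the exact two-sided permutation test gave p = 0.0286 for sqlea and ldlra, 0.0571 for fdft1 and cyp51, and 0.0857 for srebf1 and fasn. By that test 4 of the 6 thus missed the bound. The FPKM of all members together summed to 223 to 229 in the 4 DMSO eyes and to 251 to 324 in the 4 IPP eyes, so these sums did not overlap. As a share of the summed FPKM of each library they did overlap, at 0.0427% to 0.0506% in DMSO eyes and 0.0495% to 0.0641% in IPP eyes. With no overlap between the groups, 2 members were higher in IPP eyes and 0 were lower, where 2.22% of all genes were higher and 3.54% lower. In whole eyes, more cells of a type and more RNA per cell cannot be told apart. Of the 19 skin and cornea markers tested 15 lay higher in IPP eyes, as did 17 of 17 cartilage and connective tissue markers, 10 of 13 liver and gut markers and 9 of 11 blood markers. Of 16 muscle markers 13 lay lower (median -0.37). With the summed skin markers as a covariate 22 of 28 members were higher (median 0.19), and with those of liver and gut 23 were (median 0.17). At an unadjusted p under 0.05, 4 members were then higher with either covariate, where 3.93% and 4.06% of all genes were. The part of these tissues in the eye values was not tested further.

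**Figure D1:**
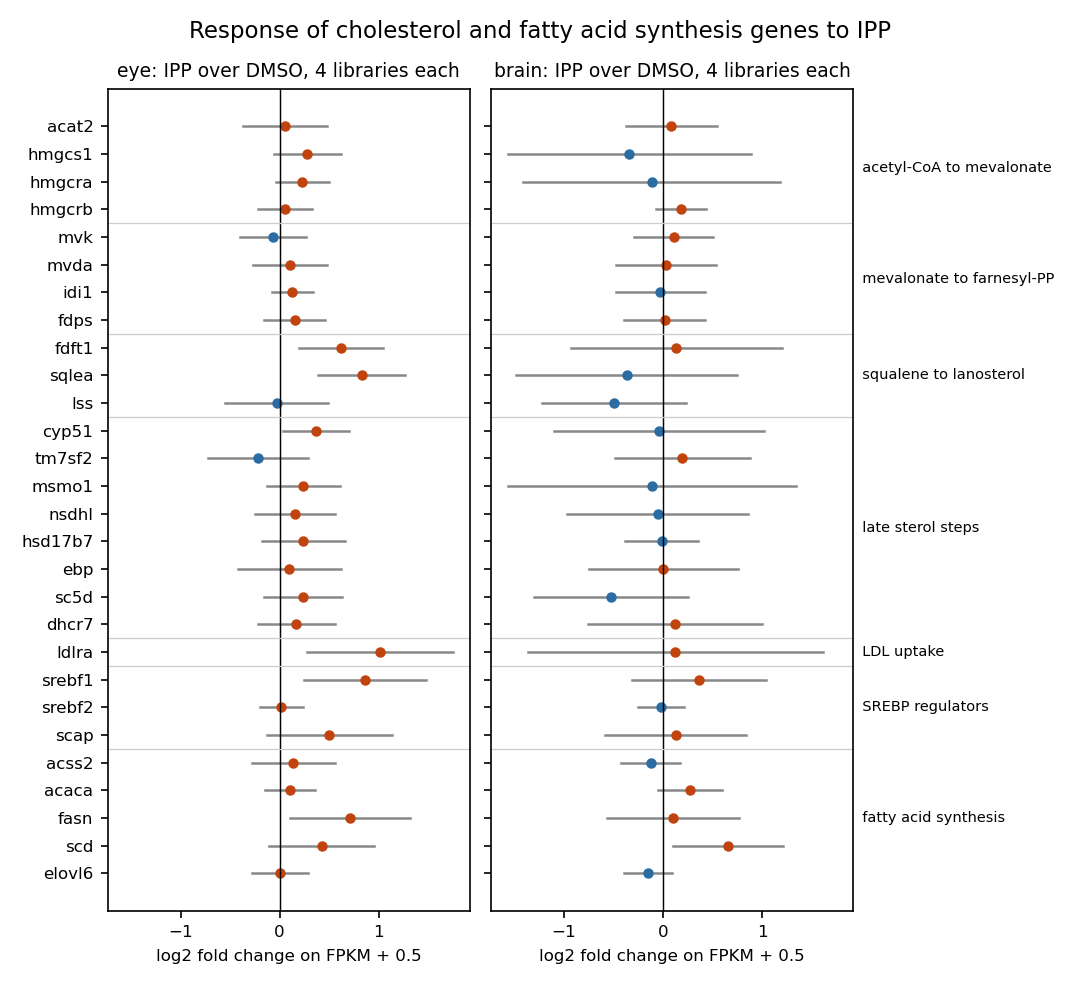
Log2 fold changes of IPP over DMSO on FPKM + 0.5 (horizontal axis) for the 28 members tested in eye (left) and brain (right), with 95% confidence intervals from limma. Members are ordered by role, orange above 0 and blue below. In eye 25 points lie above 0, with a median of 0.16, and in brain 15 do, with a median of 0.01 and wider intervals.

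The first steps, from acetyl-CoA to mevalonate, lay a little higher in IPP eyes for all 4 members, with a median of 0.14. The reductase gene hmgcra (chromosome 5, 50972485 to 50992775, minus strand), whose enzyme is the rate-limiting step and the target of statins, read 7.33, 9.45, 9.22 and 8.84 FPKM in DMSO eyes 1 to 4 and 9.05, 10.6, 9.78 and 11.8 FPKM in IPP eyes 1 to 4. The groups overlapped, with a difference of 0.23 (SE 0.12, adjusted p = 0.504 with limma). Its copy hmgcrb stood at 12.0 ± 1.21 and 12.5 ± 1.86 FPKM. The synthase gene hmgcs1 (chromosome 10, 6010570 to 6034397, plus strand), which makes HMG-CoA, read 29.5, 32.9, 28.6 and 25.2 FPKM in DMSO eyes and 29.7, 40.3, 28.8 and 44.4 FPKM in IPP eyes. IPP libraries 2 and 4 were above every DMSO library and IPP libraries 1 and 3 were among them, which gave 0.28 (SE 0.15). Without IPP library 4 the hmgcs1 difference was 0.17. The thiolase gene acat2 differed by 0.05.

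Mevalonate kinase, decarboxylase and the isoprenoid enzymes differed little. Of the 4 tested genes 3 lay higher, and the median was 0.12. The isomerase gene idi1 stood at 17.5 ± 1.51 FPKM with DMSO and 19.2 ± 1.22 with IPP, and fdps, the farnesyl diphosphate synthase, at 8.58 ± 1.42 and 9.52 ± 0.994. The decarboxylase mvda differed by 0.11 and mevalonate kinase, mvk, by -0.07. Phosphomevalonate kinase, pmvk, was close to undetected, with 1 to 9 reads per eye library and 0 to 10 per brain library. It overlaps eaf1, a gene of the opposite strand.

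The largest sterol differences in eye came at squalene. Squalene epoxidase, sqlea (ENSDARG00000079946, chromosome 16, 43401005 to 43413293, plus strand), puts oxygen on squalene and is a second control point of the route. It read 3.35, 2.66, 4.96 and 3.06 FPKM in DMSO eyes and 5.35, 6.08, 6.43 and 8.27 FPKM in IPP eyes. Each IPP eye was above each DMSO eye. The difference was 0.83 (SE 0.19), a 1.77-fold ratio, with an unadjusted p of 0.00178 and an adjusted p of 0.303 with limma. Over the 70 arrangements of the 8 libraries the exact two-sided permutation p was 0.0286, the smallest that they can give. Squalene synthase, fdft1 (ENSDARG00000101062, chromosome 20, 52907397 to 52939501, minus strand), the first enzyme committed to sterols, read 11.2, 9.85, 13.3 and 8.44 FPKM in DMSO eyes and 13.7, 17.8, 13.3 and 22.6 FPKM in IPP eyes. DMSO library 3 reached the level of IPP library 3, so the groups touched, and the difference of 0.62 (SE 0.19) had an adjusted p of 0.340 with limma. The cyclase gene lss, which closes the ring of lanosterol, was among the lowest members at 1.3 ± 0.482 and 1.22 ± 0.145 FPKM and differed by -0.03.

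Of the 8 enzymes from lanosterol to cholesterol 7 lay higher in IPP eyes, with a median of 0.20. The demethylase gene cyp51 (chromosome 19, 598657 to 617246, minus strand) read 5.29, 4.80, 7.32 and 6.21 FPKM in DMSO eyes and 6.81, 8.99, 7.57 and 7.48 FPKM in IPP eyes. DMSO library 3 lay above IPP library 1, and the difference was 0.37 (SE 0.15, adjusted p = 0.417 with limma). The methylsterol oxidase msmo1 (0.24), the ketoreductase hsd17b7 (0.24), the desaturase sc5d (0.23), dhcr7 (0.17), which makes cholesterol from its last precursor, the decarboxylating dehydrogenase nsdhl (0.16) and the isomerase ebp (0.10) each had overlapping groups. The reductase gene tm7sf2 was the exception at -0.22, and at 0.863 ± 0.226 and 0.676 ± 0.229 FPKM it lay just inside the filter.

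The receptor gene ldlra (ENSDARG00000029476, chromosome 3, 19299309 to 19323689, plus strand), whose protein takes up low-density lipoprotein, had the largest difference of all members in eye. It read 4.43, 4.71, 4.64 and 4.80 FPKM in DMSO eyes and 7.05, 6.53, 8.88 and 23.0 FPKM in IPP eyes. The DMSO eyes lay within a narrow range and every IPP eye above it, with IPP library 4 far above the other IPP eyes. The difference was 1.02 (SE 0.33, adjusted p = 0.350 with limma, exact two-sided permutation p = 0.0286), and 0.62 without IPP library 4.

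**Figure D2:**
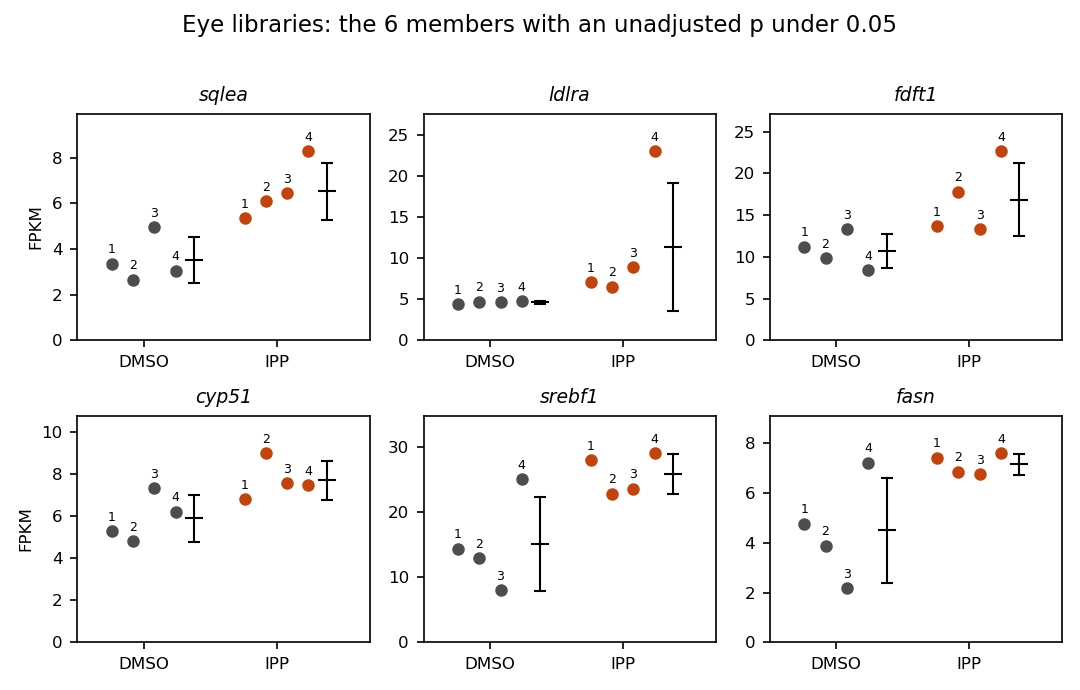
FPKM (vertical axes, from 0) in each eye library for the 6 members with an unadjusted p under 0.05 in eye, DMSO in grey and IPP in orange, with the library number above each point and the group mean ± SD (n = 4) in black. For sqlea and ldlra all 4 IPP eyes lie above all 4 DMSO eyes, and ldlra reaches 23.0 FPKM in IPP library 4.

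Among the regulators, srebf1 had the largest difference in eye and srebf2 the smallest. The gene of SREBP1, srebf1 (ENSDARG00000067607, chromosome 3, 62064805 to 62087346, minus strand), read 14.4, 13.0, 8.04 and 25.1 FPKM in DMSO eyes and 28.0, 22.9, 23.7 and 29.1 FPKM in IPP eyes. DMSO library 4 lay among the IPP eyes and the other DMSO eyes below them, and the difference was 0.86 (SE 0.27, adjusted p = 0.344 with limma). The gene of SREBP2, srebf2, the most abundant member, read 40.2, 37.0, 39.3 and 36.6 FPKM in DMSO eyes and 37.5, 43.3, 33.0 and 41.7 FPKM in IPP eyes. Its difference was 0.02 (95% interval -0.20 to 0.23). The escort gene scap differed by 0.50 (SE 0.28), with overlapping groups. The retention factor gene insig1 was listed at 0 in 15 of the 16 libraries and had 1 read in DMSO eye 4, while its paralog insig2, which is not a member, stood at 8.02 ± 1.80 FPKM in vehicle eyes and 11.9 ± 2.12 FPKM in vehicle brains.

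All 5 fatty acid genes had a positive difference in eye, with a median of 0.14. Fatty acid synthase, fasn (ENSDARG00000087657, chromosome 12, 33361948 to 33472581, plus strand), read 4.77, 3.88, 2.17 and 7.22 FPKM in DMSO eyes and 7.43, 6.86, 6.76 and 7.60 FPKM in IPP eyes. As for srebf1, DMSO library 4 lay among the IPP eyes and DMSO library 3 was the lowest, and the difference was 0.71 (SE 0.27, adjusted p = 0.397 with limma). Without DMSO library 3 it was 0.44. The desaturase gene scd, which makes oleate from stearate, read 3.13, 3.81, 3.56 and 2.21 FPKM in DMSO eyes and 3.72, 3.11, 4.50 and 6.83 FPKM in IPP eyes, with overlap and a difference of 0.42 (SE 0.24), or 0.23 without IPP library 4. The carboxylase acaca, which makes malonyl-CoA, differed by 0.10, the acetyl-CoA synthetase acss2 by 0.14 and the elongase elovl6 by 0.00. The citrate lyase copy aclya stood at 19.8 ± 3.30 and 19.8 ± 2.58 FPKM.

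The comparison of IPP brains with DMSO brains asks the same question in brain, and here 15 members lay above 0 and 13 below. With limma 0 of 28 members and 0 of 17533 genes reached an adjusted p under 0.05 (0% of all genes), and limma-voom called 0. Of all genes 53.1% were higher in IPP brains and 46.9% lower, and the median member stood at 0.01. The split depended on the libraries, with 22 of 28 members higher without DMSO library 1 and 9 of 28 without DMSO library 3 or without IPP library 4. Only scd reached an unadjusted p under 0.05, a bound that 1.56% of all genes passed upwards and 1.36% downwards (273 and 239 genes). The desaturase gene scd (ENSDARG00000033662, chromosome 12, 48390715 to 48404672, plus strand) read 2.78, 2.60, 1.97 and 2.97 FPKM in DMSO brains and 4.22, 3.45, 3.24 and 7.21 FPKM in IPP brains. All 4 IPP brains were above all 4 DMSO brains, a separation in this direction that 0.958% of all genes showed. The difference was 0.66 (SE 0.24, unadjusted p = 0.0266, adjusted p = 1 with limma, exact two-sided permutation p = 0.0286).

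Brain DMSO library 1 and IPP library 4, the libraries with liver and gut markers, held the highest brain values of most sterol genes of the set. These libraries were the 2 highest of the 8 brain libraries for 16 of 28 members, against 8.38% of all genes (1470 of 17533). They were so for 18 of 23 liver and gut markers tested, for 9 of 30 further sterol genes and for 13 of 35 further fatty acid genes. The reductase gene hmgcra read 9.93, 2.45, 1.60 and 1.61 FPKM in DMSO brains and 2.02, 1.59, 2.36 and 6.10 FPKM in IPP brains. The synthase gene hmgcs1 read 54.9, 15.0, 12.2 and 12.5 FPKM in DMSO brains and 11.5, 9.85, 13.0 and 32.9 FPKM in IPP brains. In both genes 1 library of each group was high and the other 6 lay together. The same held for msmo1, at 17.1 and 12.0 FPKM in these libraries against 2.33 to 3.87 in the others, for cyp51, at 22.4 and 17.7 against 5.81 to 8.39, and for sqlea.

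Squalene epoxidase, sqlea, read 15.6, 6.02, 4.15 and 3.58 FPKM in DMSO brains and 3.52, 2.82, 4.70 and 9.84 FPKM in IPP brains. The receptor gene ldlra read 8.78, 2.80, 2.76 and 5.02 FPKM in DMSO brains and 2.62, 2.40, 3.52 and 20.9 FPKM in IPP brains, so its highest value was in IPP library 4. The part of liver and gut RNA in these levels was not tested. Their fold changes took either sign with the library left out. For hmgcra the difference was -0.12 with all libraries, 0.42 without DMSO library 1 and -0.47 without IPP library 4, and 0.07 without both. For hmgcs1 it was -0.34, 0.16, -0.71 and -0.21 in the same order.

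**Figure D3:**
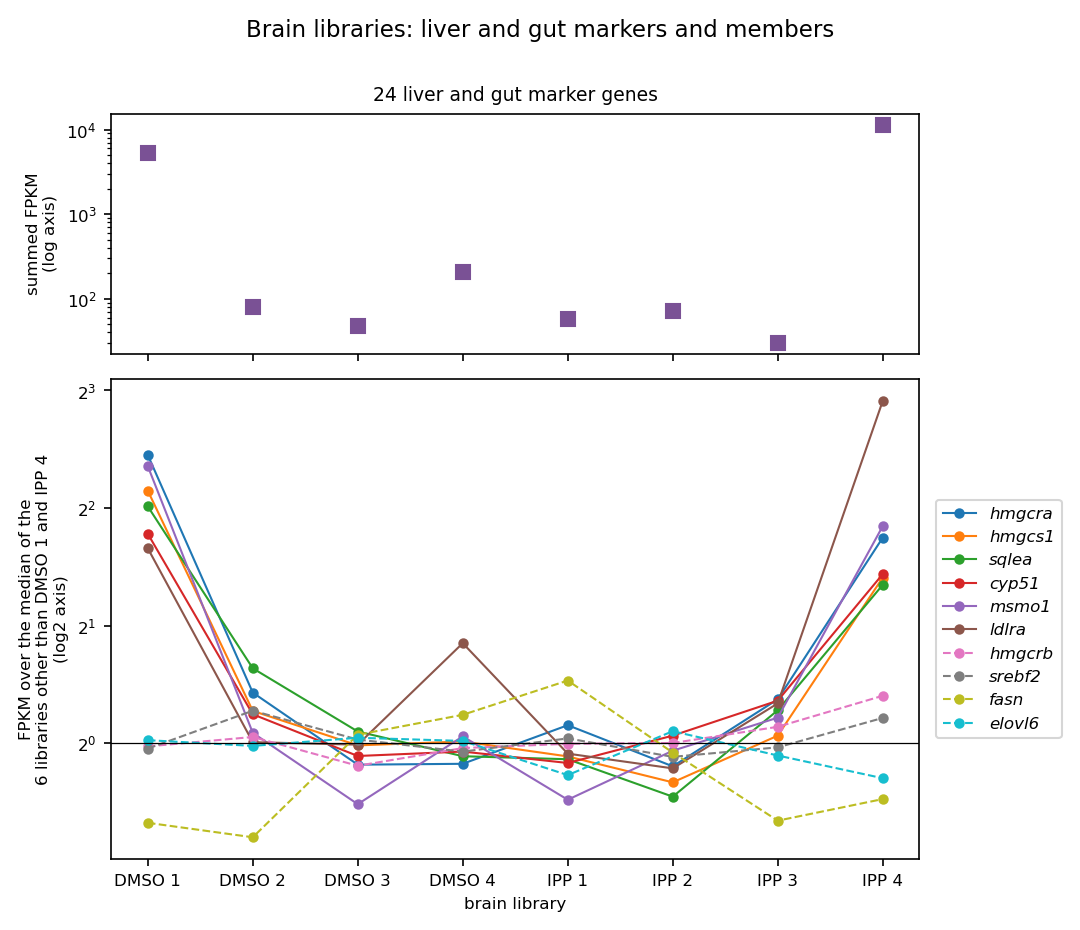
By brain library, the top panel shows the summed FPKM of 24 liver and gut markers, pancreatic enzyme genes included (log axis). The lower panel shows the FPKM of single members over their median in the 6 libraries other than DMSO 1 and IPP 4 (log2 axis). Lines join libraries as a guide only. DMSO library 1 and IPP library 4 are the 2 highest libraries for hmgcra, hmgcs1, msmo1, cyp51, sqlea and ldlra, and not for srebf2, hmgcrb, fasn or elovl6.

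For other members DMSO library 1 and IPP library 4 were not the 2 highest brain libraries. The second reductase, hmgcrb, read 15.3, 16.2, 13.7 and 15.2 FPKM in DMSO brains and 15.6, 15.6, 17.2 and 20.6 FPKM in IPP brains, a difference of 0.18 (SE 0.11). Its highest value was in IPP library 4, without which the difference was 0.094. The regulator gene srebf2 read 41.8, 52.3, 44.1 and 41.1 FPKM in DMSO brains and 44.4, 39.8, 42.1 and 50.1 FPKM in IPP brains, with no difference beyond the spread (-0.02, 95% interval -0.25 to 0.21). The groups of both genes overlapped. The elongase elovl6, which extends palmitate, read 9.89, 9.56, 10.0 and 9.85 FPKM in DMSO brains and 8.05, 10.4, 9.04 and 7.91 FPKM in IPP brains, a difference of -0.15 (SE 0.11). IPP library 2 was its highest brain library and the other IPP brains were its lowest.

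The carboxylase acaca read 3.43, 2.70, 3.81 and 2.75 FPKM in DMSO brains and 3.84, 4.21, 3.82 and 3.68 FPKM in IPP brains. Only IPP library 4 lay within the DMSO range, and the difference was 0.27 (SE 0.14, adjusted p = 1 with limma). The synthetase gene acss2, whose enzyme makes acetyl-CoA from acetate, read 5.11, 7.25, 5.96 and 6.64 FPKM in DMSO brains and 6.19, 5.92, 5.28 and 5.21 FPKM in IPP brains, a difference of -0.13. The regulator gene srebf1 read 8.16, 5.91, 10.3 and 10.9 FPKM in DMSO brains and 14.7, 10.3, 6.36 and 15.8 FPKM in IPP brains, and fasn 2.24, 2.06, 3.76 and 4.23 FPKM with DMSO and 5.18, 3.39, 2.27 and 2.58 with IPP. Both genes spread widely within each group, and their differences were 0.36 (SE 0.30) and 0.10 (SE 0.29). The sterol genes lss and sc5d lay lower in IPP brains, at 2.20 ± 1.08 and 1.38 ± 0.545 FPKM for lss and at 4.57 ± 2.61 and 2.86 ± 1.05 FPKM for sc5d. Their highest values, 3.79 FPKM for lss and 8.49 FPKM for sc5d, were both in DMSO library 1, and their groups overlapped.

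Leaving out DMSO library 1 and IPP library 4 was a choice made after seeing the data and left 3 libraries a group. Then 15 of 28 members were again higher in IPP brains, against 51.8% of all genes, and the median member stood at 0.03. The members with the smallest p were scd, at 2.51 ± 0.509 and 3.63 ± 0.515 FPKM (SD, n = 3; 0.46, unadjusted p = 0.0494 and adjusted p = 1 with limma), and sc5d, at -0.39. Groups did not overlap for scd and acaca, both higher with IPP, a separation that 3.66% of all genes showed in that direction and 3.16% in the other. The number of genes called in the whole table was then 1 of 17042 (0.00587%), which was not a member. At an unadjusted p under 0.05, 1 member was higher and 0 were lower, where 1.42% of all genes were higher and 1.18% lower.

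The eye and brain responses were set against each other as an interaction over the 15856 genes tested in both tissues. With limma 0 genes and 0 members reached an adjusted p under 0.05 (0% of all genes). The eye response was the higher for 22 of 28 members and for 45.0% of all genes, with a median difference of 0.23 against -0.03 for all genes. These values depended on single brain libraries, with 17 members and a median of 0.027 without brain DMSO library 1 and 23 members and 0.35 without brain IPP library 4. Only sqlea reached an unadjusted p under 0.05, with an eye minus brain difference of 1.19 (95% interval 0.00 to 2.39, unadjusted p = 0.0495, adjusted p = 1 with limma), where 1.43% of all genes passed upwards. Without brain DMSO library 1 and IPP library 4 the sqlea value was 1.1 (95% interval 0.41 to 1.80, adjusted p = 0.828 with limma). There, ldlra (1.25), sc5d (0.63) and hmgcs1 (0.49) also had an unadjusted p under 0.05, a bound that 1.58% of all genes passed upwards. For scd, which lay higher in both tissues, the difference of the responses was -0.23 (95% interval -0.99 to 0.53).

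Levels in the vehicle libraries were laid side by side as a description, with no test, because each tissue has a table with a scale of its own. Each FPKM value was divided by the summed FPKM of its library and multiplied by 1e6, a quantity that accounts for gene length. Lens crystallins took 15.1% to 20.3% of that sum in eye and about 0.004% in brain, which lowers every other gene of the eye on this scale. In eye srebf2 was the most abundant (median 77.7 on this scale), followed by hmgcs1 (57.4), acat2 (36.3) and idi1 (34.9), and in brain srebf2 (105), acat2 (64.7), idi1 (41.5) and hmgcrb (35.7). The ranges of acat2 (30.1 to 44.4) and idi1 (33.1 to 37.6) overlapped in eye. The lowest tested members were tm7sf2 (1.57 in eye, 3.90 in brain) and lss (2.98 and 4.33).

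The groups did not overlap for 14 members, of which fdft1 alone was higher in eye, where 9.76% of all genes were, and 13 were lower in eye, where 48.9% of all genes were. The share of members lower in eye was thus close to that of all genes. Without brain DMSO library 1, fdft1 (2.43-fold), hmgcra (4.46-fold) and hmgcs1 (1.87-fold) had higher medians in eye with no overlap. These are 3 of 28 members, against 10.4% of all genes, and 13 members lay lower, against 52.2%. Both shares of members were thus close to those of all genes. Again without that library, the members with the lowest eye levels relative to brain were ebp, sc5d and acss2, whose brain medians were 2.33-fold, 2.31-fold and 2.06-fold the eye medians. With all vehicle libraries it was tm7sf2, whose brain median was 2.48-fold the eye median, followed by ebp and sc5d.

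The balance of the reductase copies parted the tissues within single libraries, where no scale between tables enters. The ratio of hmgcra to hmgcrb FPKM ran from 0.68 to 0.941 in the 8 eye libraries. In brain it ran from 0.102 to 0.151 in 6 libraries, with 0.648 in DMSO library 1 and 0.296 in IPP library 4, the libraries with liver and gut markers. The ranges of eye and brain did not overlap, and the brain libraries nearest to the eye range were these 2. Eye markers summed to 148 FPKM in IPP library 4, the highest sum in brain, and to 9.86 FPKM in DMSO library 1. The part of eye RNA in these ratios was not tested.

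**Figure D4:**
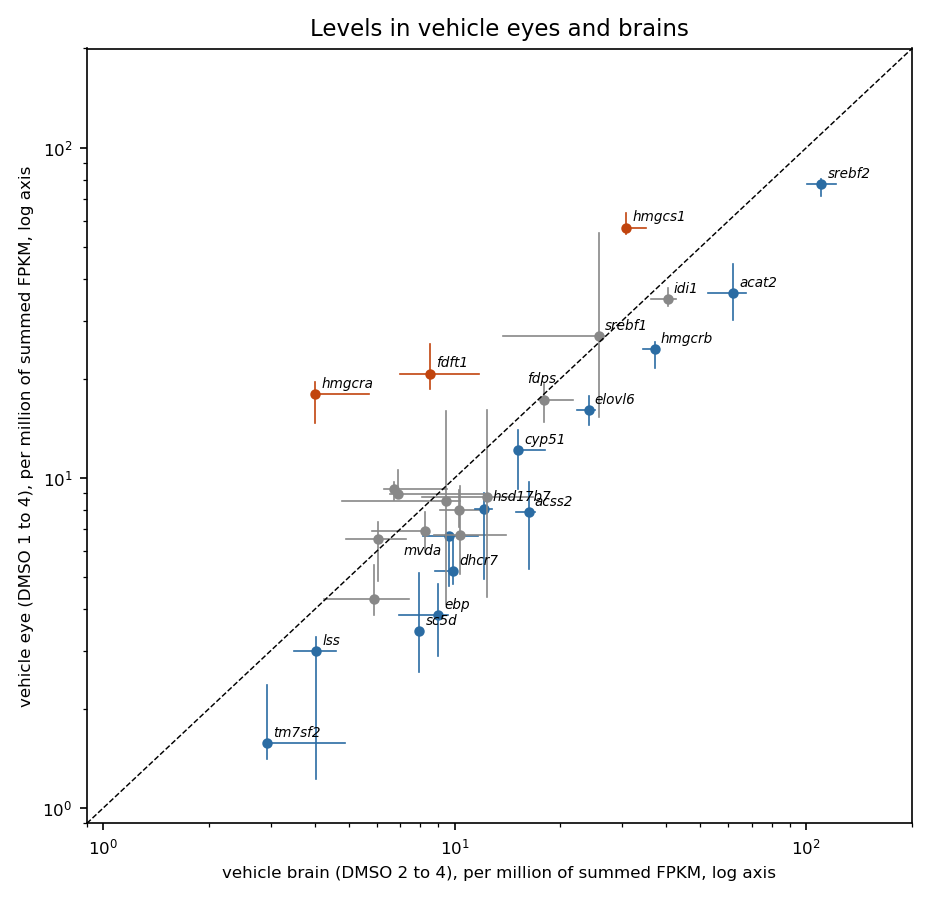
Levels in vehicle brain (horizontal, DMSO libraries 2 to 4) and vehicle eye (vertical, DMSO libraries 1 to 4), as parts per 1e6 of the summed FPKM, on log axes, with points at the medians and lines over the range of the libraries. Orange marks the 3 members that were higher in eye with no overlap, blue those that were lower (13 tested members), and grey those that overlapped. The broken line marks equal levels.

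Levels of srebf1, scap and fasn varied together from library to library most closely among the DMSO eyes. In eye DMSO library 3 was the lowest and DMSO library 4 the highest DMSO eye for all of them, as with scap at 5.38, 3.50, 2.28 and 7.27 FPKM in DMSO eyes. Its IPP eyes read 7.08, 6.91, 5.30 and 5.79 FPKM. In brain, scap and fasn were both highest in IPP library 1. There srebf1 was highest in IPP library 4, at 15.8 FPKM, where fasn read 2.58 FPKM. With group means removed, Pearson r over the 8 eye libraries was 0.979 for srebf1 and fasn (Spearman rho 0.833), 0.896 for srebf1 and scap (rho 0.69) and 0.944 for scap and fasn (rho 0.929), given as a description with no test. Leaving out DMSO libraries 3 and 4, the farthest from the median, brought these to 0.761, 0.284 and 0.706, so the pair of srebf1 and scap rests on those libraries. In brain the same pairs had r of 0.671, 0.767 and 0.892. The 2 libraries farthest from the median of the first gene of a pair were left out here too. Without DMSO library 2 and IPP library 3 the pairs with srebf1 had r of 0.35 and 0.172. Without IPP libraries 1 and 3 the pair of scap and fasn had 0.877. As the libraries left out differ, these values cannot be ranked against each other.

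This triplet was noticed in the data, and other genes share its pattern. Of the genes that averaged 2 FPKM or more, 232 of 12566 in eye (1.85%) and 182 of 13116 in brain (1.39%) had an r above 0.9 with the mean level of the triplet, and 51 of 11160 did so in both tissues. None of the other members did, 0 of 22 in eye and 0 of 24 in brain, the closest being acss2 at 0.244. Over all 378 pairs of members the median r was 0.06 in eye and 0.53 in brain, where most sterol genes of the set were highest in DMSO library 1 and IPP library 4.

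**Figure D5:**
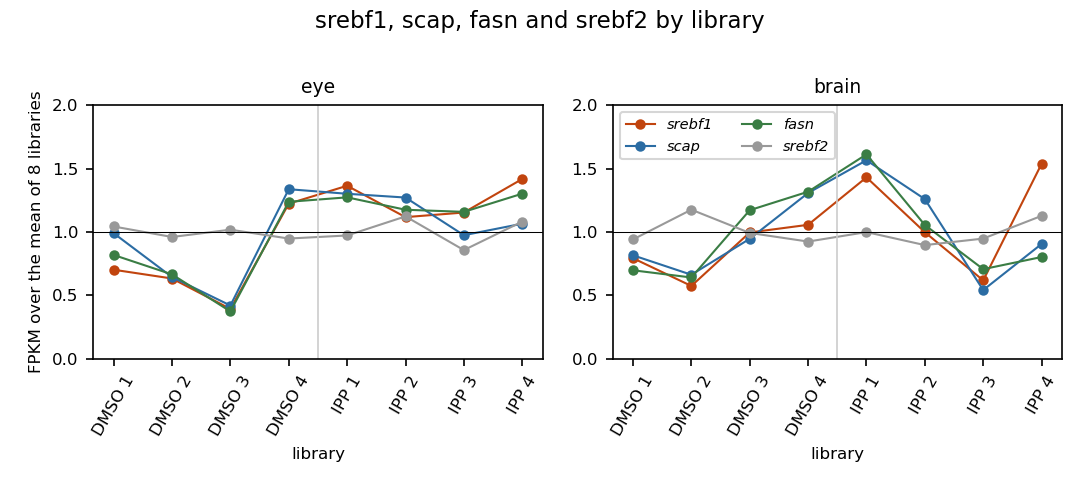
FPKM over the mean of the 8 libraries of a tissue (vertical axis, from 0) of srebf1, scap, fasn and srebf2 by library in eye (left) and brain (right), with lines that join libraries as a guide only. In eye the first 3 genes are lowest in DMSO library 3, where srebf1 reads 8.04 FPKM, and in brain scap and fasn are highest in IPP library 1, while srebf2 stays near its mean in both tissues.

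Further genes of both pathways, taken from lists that do not share members with the set, gave 0 calls with limma in either tissue. Of 28 further sterol genes tested in eye, which cover uptake, transport, storage, breakdown and SREBP processing, 17 were higher with IPP (median 0.03). Of all genes 49.5% were. None of the 28 had an unadjusted p under 0.05 in either direction, where 5.3% of all genes were higher and 5.73% lower at that bound. The smallest p were those of aacs, the acetoacetyl-CoA synthetase, at 3.43 ± 2.02 and 5.55 ± 1.06 FPKM (0.76, SE 0.34), of the lipoprotein receptor lrp1ab (0.30), of the cholesterol exporter abca1b (0.43) and of the oxysterol binding protein osbp (0.42). In brain 19 of 30 were higher (median 0.03), where 53.1% of all genes were, again with 0 at that bound. The SREBP protease gene mbtps1 had the smallest p there, at 1.78 ± 1.3 and 0.640 ± 0.252 FPKM (-0.84, SE 0.41).

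Of 32 further fatty acid genes tested in eye 23 were higher (median 0.08), where 49.5% of all genes were. At an unadjusted p under 0.05 the triglyceride synthesis gene dgat1b (0.923 ± 0.0998 and 1.37 ± 0.147 FPKM, 0.40) and the elongase elovl2 (0.56) were higher and scdb was lower. Of all genes 5.3% were higher and 5.73% lower at that bound. A second stearoyl-CoA desaturase gene, scdb stood at 22.2 ± 2.03 FPKM in vehicle eyes and 18.7 ± 2.12 FPKM in exposed eyes (-0.24, SE 0.11, adjusted p = 0.449 with limma), opposite in sign to the member scd, and it was the more abundant copy in both tissues. In DMSO brains scdb stood at 79.8 ± 9.40 FPKM and in IPP brains at 70.9 ± 3.85 FPKM. In brain 24 of 35 further fatty acid genes were higher (median 0.12), where 53.1% of all genes were. There 0 reached that bound, which 1.56% of all genes passed upwards and 1.36% downwards. The elongase elovl4b, which makes very long chain fatty acids of photoreceptors, stood at 124 ± 7.51 FPKM in DMSO eyes and 1.77 ± 0.405 FPKM in DMSO brains.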

How the data were processed

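Total RNA of dissected eyes and brains was sequenced in 16 libraries, 4 in each group. The authors deposited FPKM values in 1 table per tissue, with gene lengths and coordinates. The submitters' processing notes name HISAT2 2.0.5 and, for counting software, featureCounts 1.5.0-p3. No formula for FPKM, build or annotation is stated in the sources used here. Per the labels' protocols both a directional and a non-directional preparation are described, so the use of strand is unclear. Values of members that overlap an expressed neighbour (lss with mcm3ap, dhcr7 with nadsyn1) are uncertain for that reason.

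Identifiers of all 30 members found were in the reference gene table, 25 under the same symbol. Multiplied by gene length, 100% of a library's FPKM values were multiples of the worth of 1 read (tolerance 0.01 read), so whole reads could be rebuilt. The reads per library, given with the results, limit the precision of low genes.

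For each tissue alone, limma 3.58.1 (R 4.3.3; lmFit, eBayes with trend) tested log2(FPKM + 0.5) of the genes that averaged 0.5 FPKM or more, two-sided, with Benjamini-Hochberg adjustment over all genes tested and a threshold of 0.05. The responses of both tissues were compared as an interaction. Each member also had an exact two-sided permutation test over 70 arrangements, whose smallest p is 0.0286. Figures were drawn with matplotlib 3.10.9 and labels read with jsonlite 2.0.0. The script was tested on simulated data.

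The settings varied were the pseudocount (0.1 and 1), the filter (none and 2 FPKM), the scaling (median of ratios, quantile), a block for the replicate number, limma-voom on rebuilt reads, quality weights per library, robust eBayes and leaving out each library. Chosen after seeing the data were leaving out pairs of libraries and the summed skin or liver and gut markers as covariates. The members and lists were chosen with earlier results of these data known. By library, the text gives the 8 members with the smallest p in each tissue and hmgcra, hmgcs1, sqlea, ldlra, insig1, srebf1, srebf2, fasn and scd in any case; scap was added after its values were seen. Sequences and promoter motifs are not analysed here. All columns of values were used.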

Additional observations from a re-analysis of the deposited data

Results flagged for a closer look

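Within a group of 4 libraries, 15 of 112 groups of tested members held a library far from its companions by Dixon's criterion (a gap above 0.829 of the range). For normal values about 5.6 would be. The criterion was applied to FPKM without a log, and members vary together in brain (median r 0.53 over pairs), so 5.6 is no measure of chance here. The share over all genes was not computed. Of the 15 flagged, 6 were in brain DMSO library 1 and 6 in brain IPP library 4, the brain libraries with liver and gut markers, and 3 in eye.

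In brain DMSO library 1, hmgcs1 read 54.9 FPKM (12.2 to 15.0 in the other DMSO brains), cyp51 22.4 (6.06 to 7.74), msmo1 17.1 (2.33 to 3.54), hmgcra 9.93 (1.60 to 2.45), dhcr7 9.09 (3.61 to 4.34) and sc5d 8.49 (3.18 to 3.40). In brain IPP library 4, hmgcs1 read 32.9 FPKM (9.85 to 13.0 in the other IPP brains), ldlra 20.9 (2.40 to 3.52), msmo1 12.0 (2.39 to 3.87), ebp 8.16 (2.53 to 2.97), nsdhl 6.46 (1.74 to 2.12) and hmgcra 6.1 (1.59 to 2.36). The mix differed between the libraries, with ldlra the highest in IPP library 4 relative to the 6 others (7.52-fold their median) and hmgcra in DMSO library 1 (5.47-fold). The summed liver and gut markers were 5288 FPKM in DMSO library 1 and 11401 in IPP library 4. Their part in these levels was not tested.

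In eye, ldlra read 23.0 FPKM in IPP library 4 (6.53 to 8.88 in the other IPP eyes). In the same library hsd17b7 read 3.42 FPKM (4.67 to 4.87), below its companions, and elovl6 read 9.21 FPKM in DMSO library 2 (7.55 to 7.71).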

How the results depend on the processing

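In eye 21 to 26 members were higher under every alternative run, and 0 members were called. Median-of-ratios scaling moved the median member only from 0.1621 to 0.1618 in eye and from 0.00941 to 0.00942 in brain. It thus hardly differed from the scaling of the deposited values. Leaving out 1 library gave 21 to 25 members higher, a median of 0.15 to 0.23, 4 to 7 members at an unadjusted p under 0.05 and 0 to 3 genes called. The share of all genes higher at that bound moved too, to 3.31% without DMSO library 2 (4 members) and 9.58% without DMSO library 4 (7 members). Without DMSO libraries 1 and 2, 2 members reached that bound (2.22% of all genes), and without DMSO libraries 3 and 4, 2 genes were called. The srebf2 value turned to -0.0062 with quality weights, to -0.013 without DMSO library 1 and IPP library 2, to -0.060 with liver and gut markers as a covariate, and ran from -0.037 to 0.091 over single libraries left out.

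In brain 1 library left out gave 9 to 22 members higher, a median of -0.11 to 0.15 and 1 to 2 members at the bound. The ranges were -0.47 to 0.42 for hmgcra, -0.71 to 0.16 for hmgcs1, -0.55 to 0.44 for ldlra, -0.70 to 0.055 for sqlea, -0.10 to 0.26 for fasn and -0.083 to 0.054 for srebf2. Quality weights gave 8 members higher and -0.34 for ldlra, and quantile normalization 11 members (42.9% of all genes) and -0.016 for fasn. At the bound were 2 members by limma-voom and 2 without DMSO library 4 and IPP library 3. With liver and gut markers as a covariate 18 members were higher (median 0.046), with 1 at the bound, where 2.95% of all genes were higher. With skin markers as a covariate 14 members were higher (median 0.002), with 1 at the bound, where 3.88% of all genes were higher. With either covariate 0 members were called. Without DMSO library 1 and IPP library 4, 1 gene was called, hmgcra stood at 0.066 and ldlra at -0.24.

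The eye minus brain count at the bound was 0 at a pseudocount of 1, without filter, with the replicate block, with robust eBayes and by limma-voom, 2 with quality weights and 4 without brain DMSO library 1 and IPP library 4. With 1 library left out it was 0 to 4, with 17 to 23 members higher and a median of 0.03 to 0.35. Same-numbered DMSO and IPP libraries did not all deviate together (r -0.09 to 0.04 in eye, -0.09 to 0.33 in brain). Same-numbered eye and brain libraries did so for IPP (r 0.21 to 0.38) and not throughout for DMSO (-0.14 to 0.44). With these as a replicate block across tissues, 22 members were higher and 1 was at the bound, as without it, and 2.55% of all genes were. With the replicate number as a block 25 eye members were higher, 5 were at the bound and 0 were called, and the brain counts were 15, 1 and 0. Either block is balanced over DMSO and IPP and cannot move a fold change, so it could not alter the counts of members higher. The cause of the changes between settings was not tested.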
